A study of Mus musculus with 2 samples.

Results

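The genes described here are 10 genes whose proteins fill or accompany the granules of neutrophils, the short-lived phagocytes that make up most circulating granulocytes: *Mpo*, *Elane*, *Prtn3*, *Ctsg*, *S100a8*, *S100a9*, *Ngp*, *Camp*, *Ltf* and *Lcn2*. They were chosen by name, with earlier results of these data known, and all 10 were found among the 22096 gene symbols of the data. RNA was sequenced from the forelimbs of E13.5 mouse embryos, whose strain background was mixed. Cells were sorted on ScxGFP, a green fluorescent reporter driven by regulatory sequence of the tendon gene *Scx*, into ScxGFP-positive and ScxGFP-negative populations; 6 forelimbs (3 pairs) were pooled for each sample. Each population gave 1 library, so there were no replicates and no test, and every difference describes these 2 libraries only. Both populations came from the reporter embryos, and neither was sorted for blood cells, so circulating or resident leukocytes of the limb could be in either population.

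Neutrophils load their granules in sequence as they mature. Promyelocytes make the primary (azurophilic) granules, with myeloperoxidase and the neutrophil serine proteases, whereas later stages make the secondary and tertiary granules, with lactoferrin, cathelicidin, neutrophilic granule protein and lipocalin 2. The calcium-binding proteins S100A8 and S100A9 pair as calprotectin and are stored largely in the cytosol. In the mouse embryo, granulocyte precursors are made in the fetal liver and reach other organs through blood. Some of the same proteins have other sources: epithelia can make lipocalin 2, lactoferrin and calprotectin, and monocytes can make calprotectin.

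Levels are given as FPKM from the deposited files, a fragment number divided by transcript length and by sequencing depth, so levels can be compared between genes. Log2 ratios are of (FPKM + 1) in positive over (FPKM + 1) in negative cells, which understates differences of genes at low levels, and no fold is given for a gene listed at 0. A gene is called measured where either library gave it at least 1 FPKM, which 12096 genes met. Their median log2 ratio was −0.27. *Scx*, the gene behind the sort, had an FPKM of 134 in the sorted positive cells and 1.69 in the rest. Because cells were pooled, fewer cells of a type and less RNA per cell cannot be told apart.

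All 10 genes were above 0 in the ScxGFP-negative library, and 4 of them were listed at exactly 0 in the ScxGFP-positive library. Summed over the 10 genes, FPKM was 71.5 in negative cells and 0.973 in positive cells, 0.0324% and 0.00060% of each library's total. These sums corresponded to an estimated 190 kilobases of aligned sequence in the negative library and 2.16 in the positive library. Aligned bases here and below come from the deposited coverage, which was a fixed multiple of FPKM in each library. They are thus FPKM and length on another scale and no separate count of reads. The highest positive value of any of the 10 was 0.410 FPKM, for *Prtn3*. Of the 8 genes that reached 1 FPKM in either library, 8 were at least 2-fold lower in positive cells, against 9.98% of all measured genes; 0 were at least 2-fold higher, against 4.03%. The genes were chosen on this contrast, and each of the 8 reached 1 FPKM through the negative library alone, so nothing is read from that count. *Camp*, at 1.29 FPKM in negative cells, lay just inside the limit, and *Ctsg*, at 0.995, just outside.

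**Figure D1:**
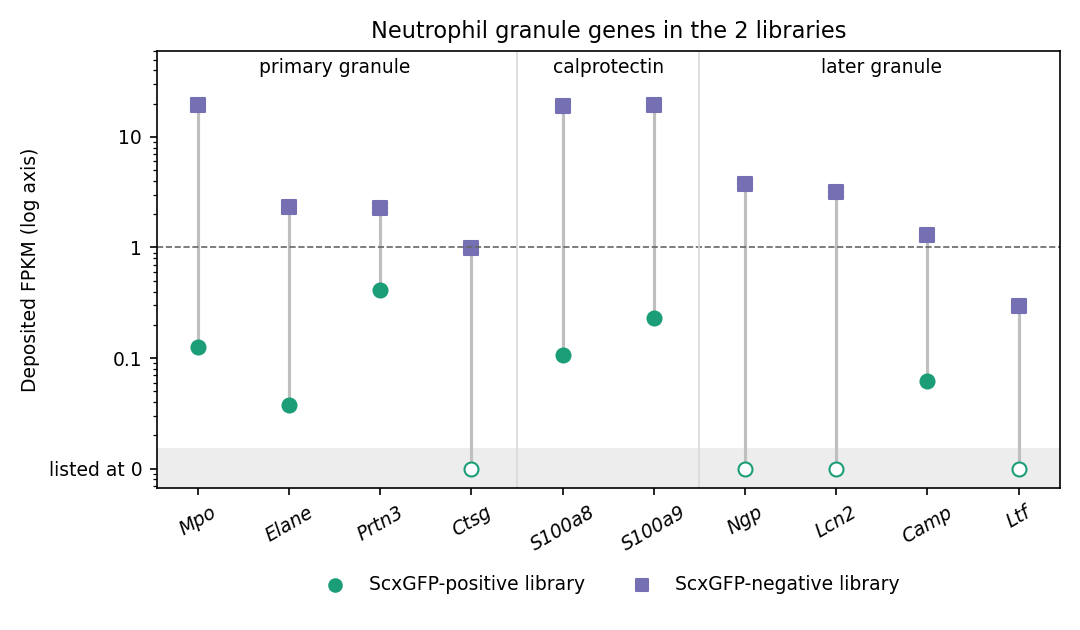
Deposited FPKM (log axis) of the 10 genes in the ScxGFP-positive library (circles) and the ScxGFP-negative library (squares), 1 library each; open circles in the grey band are genes listed at 0, and the dashed line marks 1 FPKM. All 10 squares lie above their circles, and *Mpo*, *S100a8* and *S100a9* reach about the same level near 19 FPKM in negative cells.

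Among the primary granule genes, *Mpo* was the most abundant. It encodes myeloperoxidase, the haem enzyme that makes hypochlorous acid from hydrogen peroxide and chloride. Its FPKM was 0.127 in positive and 19.2 in negative cells, with a log2 ratio of −4.16 (NM_010824, mm9 chromosome 11, 87607286 to 87617914). The negative value placed it at rank 1378 of the 12096 measured genes in that library, and the positive value was 0.661% of it. The values correspond to about 738 aligned bases in positive cells and 116780 in negative cells.

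The neutrophil serine proteases were lower in level than *Mpo*. *Elane*, which encodes neutrophil elastase, stood at 0.0379 FPKM in positive and 2.34 in negative cells (log2 ratio −1.69). *Prtn3*, the gene for proteinase 3, stood at 0.410 and 2.29 (−1.22). In negative cells *Elane* and *Prtn3* were thus almost equal, at 1.02 times each other and both about 8-fold under *Mpo* (8.21 and 8.39). In positive cells they were not: *Prtn3* kept 17.9% of its negative value and *Elane* 1.62%, which correspond to about 908 and 79.5 aligned bases. *Ctsg*, encoding cathepsin G, was listed at 0 in positive and at 0.995 FPKM in negative cells, where *Mpo* was 19.3 times higher. With so little sequence in the positive library, the order of these genes there is poorly bounded.

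*Prtn3* (NM_011178, mm9 chromosome 10, 79342412 to 79345917) and *Elane* (NM_015779, 79349057 to 79350961) lie 3.14 kilobases apart with no listed gene between them, whereas *Ctsg* (NM_007800, chromosome 14, 56718718 to 56721411) lies next to *Mcpt8*, a basophil protease gene, at 0 in positive and 2.61 FPKM in negative cells. The 150 bases before the annotated start are shown for the members at the highest levels and for the neighbouring pair *Prtn3* and *Elane*. Whether these sequences bear on the low values in positive cells was not tested. The sequences are RefSeq's on build GRCm38.p6, another build than the mm9 of the data, and all 10 genes had an entry. Capitals mark 3 short motifs on either strand, chosen with these sequences in view: GAGGAA, read as TTCCTC on the opposite strand, the core bound by the myeloid factor PU.1; AACGG, read as CCGTT, a core bound by Myb; and GCAAT, read as ATTGC, a short site of C/EBP factors.
Prtn3, chr10:79879517-79879666, plus strand: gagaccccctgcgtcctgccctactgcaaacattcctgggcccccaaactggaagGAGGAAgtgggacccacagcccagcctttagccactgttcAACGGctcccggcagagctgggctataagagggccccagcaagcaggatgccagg
Elane, chr10:79886162-79886311, plus strand: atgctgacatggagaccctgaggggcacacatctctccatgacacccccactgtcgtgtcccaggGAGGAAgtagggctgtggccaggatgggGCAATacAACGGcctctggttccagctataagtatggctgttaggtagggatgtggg
Mpo, chr11:87793634-87793783, plus strand: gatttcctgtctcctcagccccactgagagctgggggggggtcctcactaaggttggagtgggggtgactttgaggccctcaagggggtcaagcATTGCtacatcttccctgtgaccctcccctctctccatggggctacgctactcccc
S100a8, chr3:90668921-90669070, plus strand: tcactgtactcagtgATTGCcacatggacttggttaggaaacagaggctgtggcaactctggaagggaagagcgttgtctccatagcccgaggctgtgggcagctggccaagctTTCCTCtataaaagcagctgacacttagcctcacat
S100a9, chr3:90695722-90695871, minus strand: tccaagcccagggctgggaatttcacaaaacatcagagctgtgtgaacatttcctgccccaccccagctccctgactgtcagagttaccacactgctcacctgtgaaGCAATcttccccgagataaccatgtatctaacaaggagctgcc
Ngp, chr9:110419658-110419807, plus strand: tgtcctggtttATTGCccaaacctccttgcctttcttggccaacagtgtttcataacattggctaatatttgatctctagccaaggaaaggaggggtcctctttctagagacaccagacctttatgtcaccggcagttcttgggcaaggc

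The neighbouring protease genes share a layout. In *Elane* the GAGGAA match begins 85 bases before the start and the AACGG match 50 bases before it; in *Prtn3* they begin 95 and 55 bases before it. *Elane* and *Prtn3* were 2 of the 10 genes with both motifs in this window, which 1.36% of 32851 annotated promoters hold. GAGGAA was in 4 of the 10 (*Elane*, *Lcn2*, *Prtn3* and *S100a8*) and in 14.5% of all promoters, and AACGG in 2 of 10 and 9.44%. GCAAT was in 8 of the 10, not in *Prtn3* or *Ctsg*, and in 13.9% of all promoters. A longer C/EBP pattern, TTNNGNAA or its complement, was in 4 of 10 and 22.7%; in *Ltf* and *Ngp* it overlapped a GCAAT match. No capitals of different motifs overlap in the sequences shown. The motifs were chosen with these sequences in view, so nothing is read from the member counts beside the shares of all promoters. A match describes the letters only and is no evidence of binding in these cells.

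The calprotectin genes were as abundant as *Mpo*. *S100a8* stood at 0.107 FPKM in positive and 18.9 in negative cells, with a log2 ratio of −4.16 (NM_013650, mm9 chromosome 3, 90472993 to 90473956). *S100a9* stood at 0.230 and 19.3, a log2 ratio of −4.04 (NM_009114, 90496555 to 90499613). In negative cells *S100a9* was 1.02 times *S100a8* and 1.005 times *Mpo*, so these 3 genes stood at nearly the same level and together made up 80.2% of the summed FPKM of the 10. The positive values of *S100a8* and *S100a9* were 0.566% and 1.19% of the negative values, which correspond to about 95.6 and 256 aligned bases.

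Other S100 genes, most of them also on chromosome 3, were less far apart between the libraries. *S100a11* stood at 119 FPKM in positive and 231 in negative cells (log2 ratio −0.95), *S100a10*, the annexin A2 partner, at 28.5 and 38.7 (−0.43) and *S100a16* at 1.89 and 12.9 (−2.26). Of the 8 measured S100 genes outside the calprotectin pair, the number at least 2-fold lower was 3, the other 5 lay within 2-fold, and the median log2 ratio was −0.84. *S100a8* and *S100a9* lie 22.6 kilobases apart with no listed gene between them.

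The later granule genes were at low levels in negative cells and at 0 or close to it in positive cells. *Ngp*, which encodes neutrophilic granule protein, a cystatin-like relative of cathelicidin, was listed at 0 in positive and at 3.76 FPKM in negative cells (NM_008694, mm9 chromosome 9, 110322312 to 110325516). *Lcn2*, encoding lipocalin 2, which binds bacterial siderophores, was listed at 0 and at 3.16 (NM_008491, chromosome 2, 32240157 to 32243259). *Camp*, the cathelicidin gene, stood at 0.0624 and 1.29, a log2 ratio of −1.11, with about 85.4 aligned bases in the positive library (NM_009921, chromosome 9, 109749891 to 109751970). *Ltf*, encoding the iron-binding protein lactoferrin, was listed at 0 and at 0.297 FPKM, under 1 in both libraries (NM_008522, chromosome 9, 110921796 to 110945270). Within negative cells *Ngp* was 2.91 times *Camp* and 12.7 times *Ltf*. None of the 10 genes overlaps another listed gene, which matters because the library chemistry does not mark strand.

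Set side by side, primary granule genes summed to 24.8 FPKM in negative cells, calprotectin genes to 38.1 and later granule genes to 8.50, or 34.7%, 53.4% and 11.9% of the total. In positive cells the sums were 0.575, 0.337 and 0.0624 FPKM, that is 2.31%, 0.882% and 0.734% of the negative sums. Of the primary genes 1 of 4 was listed at 0 in positive cells, of the later genes 3 of 4. In negative cells the later genes ranged from 0.297 to 3.76 FPKM and the primary genes from 0.995 to 19.2. No class difference is therefore read from the counts at 0. The positive sum of the primary genes came mostly from *Prtn3*. Median log2 ratios over measured members were −1.69 for primary genes (3 of 4 measured), −4.10 for the calprotectin pair and −2.06 for later genes (3 of 4 measured). The later median is that of *Lcn2*, listed at 0 in positive cells, so its size is set by the pseudocount and no order of the classes is read from it. Over the 8 measured members the median was −2.15, or −1.89 from that of all measured genes. It is the mean of the ratios of *Ngp* and *Lcn2*, both listed at 0 in positive cells, so the pseudocount sets its size too. Over the 6 measured members above 0 in both libraries the median was −2.87.

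**Figure D2:**
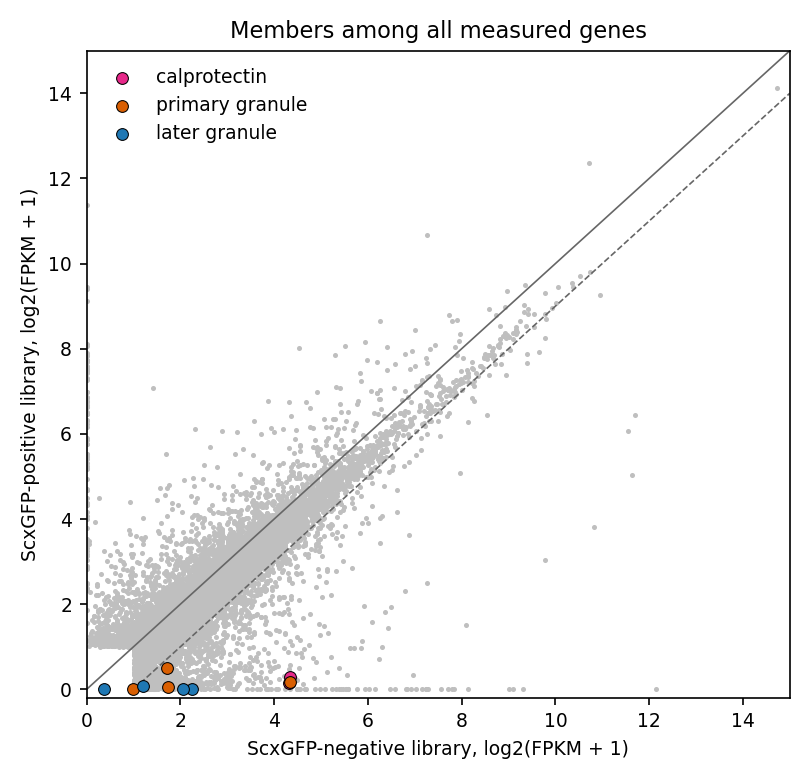
Log2(FPKM + 1) of the 12096 measured genes (grey) in the ScxGFP-negative (x) and ScxGFP-positive (y) library, with the 10 granule genes coloured by class, *Ctsg* and *Ltf* included although under 1 FPKM. The solid line marks equal values and the dashed line 2-fold lower in positive cells; *Mpo*, *S100a8* and *S100a9* overlie each other at 4.3 on the x axis, and the rest lie between 0 and 2.3.

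Genes that act with the granule proteins were at least 2-fold lower in positive cells in 3 of 5 measured cases. *Srgn*, the proteoglycan core on which granule proteins are packed, stood at 0.632 FPKM in positive and 74.1 in negative cells. *Ctsc*, encoding the dipeptidase that activates the granule serine proteases, stood at 1.24 and 22.4, and *Cst7*, encoding the cystatin-family inhibitor cystatin F, at 0.226 and 3.06. In negative cells *Srgn* and *Ctsc* stood above all 10 granule genes, of which *S100a9* was highest at 19.3 FPKM. Which cells gave the RNA of these partner genes was not tested. *Serpinb1a*, an inhibitor of elastase and its relatives, was within 2-fold on the FPKM + 1 scale, at 0.368 and 1.58 (23.3%). Of 10 listed genes 5 were measured, of which 3 were at least 2-fold lower and 2 within 2-fold (median log2 ratio −1.73). The other one within 2-fold, *Cd63*, a widely expressed lysosomal membrane gene named here after its values were seen, stood at 73.3 and 51.9 FPKM.

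A further 12 genes of later granules and their enzymes had 5 measured members, 4 of them at least 2-fold lower and 1 within 2-fold (median −1.69). *Pglyrp1*, encoding a peptidoglycan-binding granule protein, stood at 2.60 FPKM in negative cells and at 4.61% of that in positive cells, and *Hp*, the haptoglobin gene, at 0.0217 and 1.17. The lysozyme genes *Lyz2* (0.979 and 77.4) and *Lyz1* (0.111 and 6.82) are close copies, so the division of reads between them is uncertain, and macrophages express lysozyme too. The remaining 7 genes, among them the neutrophil collagenase gene *Mmp8* (0 and 0.256) and the gelatinase gene *Mmp9* (0.232 and 0.380), lay under 1 FPKM in both libraries. The phagocyte oxidase list, which neutrophils share with macrophages, had 6 of 6 genes at least 2-fold lower (median −2.09). *Rac2* stood at 1.06 and 19.7 FPKM, *Cybb*, the catalytic subunit, at 0.0878 and 5.26, *Ncf4* at 0.0613 and 4.06 and *Ncf1* at 0.942 and 6.41.

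Transcription factors of the myeloid lineage were lower in positive cells where they were measured. PU.1, listed as *Sfpi1*, stood at 0.251 FPKM in positive and 17.6 in negative cells. *Irf8*, a factor of the monocyte branch, stood at 0.151 and 3.94, *Cebpa*, needed for granulocyte commitment, at 0.826 and 6.02, and *Myb*, a progenitor factor, at 0.994 and 6.30. Of 9 listed factors 5 were measured, and for all 5 the level was at least 2-fold lower (median −1.94). *Cebpe*, the factor of later granule genes, was listed at 0 in both libraries, and *Gfi1*, a repressor needed for neutrophil maturation, was listed at 0 and at 0.531 FPKM.

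Receptors that mark neutrophils did not all share the pattern of the granule genes. The integrin genes *Itgb2* (0.0292 FPKM in positive and 5.89 in negative cells) and *Itgam* (0.119 and 5.08), which macrophages also express, had log2 ratios of −2.74 and −2.44. *Csf3r*, the receptor for granulocyte colony-stimulating factor, was within 2-fold on the FPKM + 1 scale at 0.853 and 2.21 (−0.79), the positive value being 38.7% of the negative one. *Cxcr2*, the chemokine receptor of mature neutrophils, was nearly level at 3.997 and 4.97 (−0.26), or 80.4%. Of 11 listed receptor genes 10 were in the data and 4 were measured, 2 of them at least 2-fold lower and 2 within 2-fold. The listed gene *Ly6g* was not found among the gene symbols of the data, so it has no value. Of the genes taken to define neutrophils beside the granule genes, *Cebpe* was thus at 0 and *Csf3r* and *Cxcr2* did not reach 2-fold, so the 10 genes are described as granule genes and not as a count of neutrophils.

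Genes of other cell types were also lower in positive cells, and their part in the result was not tested. Mast cell and basophil genes, led by *Cpa3* (1.85 FPKM in positive and 271 in negative cells) and *Cma1* (0.261 and 45.8), summed to 4.99 and 415 FPKM, and 10 of 10 measured ones lay past 2-fold on the lower side. The 13 genes included 5 at 0 in positive and 0 at 0 in negative cells. Macrophage genes, led by *C1qb* (1.79 and 32.7) and *C1qc* (1.91 and 30.2), summed to 14.3 and 152, with 9 of 10 measured genes at least 2-fold lower. Monocyte genes, led by *F13a1* (0.404 and 8.57) and *Ccr2* (0.106 and 8.57), summed to 1.73 and 24.7, with 4 of 4 measured genes at least 2-fold lower. Of 7 eosinophil genes 2 were measured: *Prg2*, encoding the major basic protein, at 0.0969 and 1.26, and *Il5ra*, level at 1.11 and 1.23. The eosinophil peroxidase gene *Epx*, the close relative of *Mpo*, stood at 0.0271 and 0.488.

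Erythroid, epidermal and endothelial genes were lower in positive cells as well. Erythroid genes, led by *Hbb-y* (85.8 and 3303) and *Hba-x* (66.4 and 2974), had 10 of 10 genes at least 2-fold lower and summed to 176 and 9115 FPKM. Epidermal genes, led by *Krt5* (4.67 and 151) and *Perp* (1.98 and 67.1), had 8 of 8 genes past the same limit and summed to 12.2 and 333. Endothelial genes, led by *Cdh5* (0.447 and 15.3) and *Emcn* (0.307 and 7.75), had 5 of 6 at least 2-fold lower and summed to 2.95 and 45.5. No gene of these lists was listed at 0 in either library.

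The share of the negative level that was left in positive cells gives all lists one scale. Over the 8 measured granule genes its median was 0.926%, from 0 to 17.9%. It was 0.457% for mast cell and basophil genes, 1.90% for erythroid, 3.17% for epidermal, 4.06% for monocyte, 4.29% for endothelial, 5.86% for macrophage genes and 48.8% for the 2 measured eosinophil genes. Among the lists related to neutrophils it was 1.86% for other later granule genes, 7.37% for the partners of granule proteins, 10.04% for the oxidase, 13.7% for transcription factors and 20.5% for receptors. Over all measured genes it was 78.9%. The ranges overlap: among macrophage genes the share ran from 1.78% to 77.2%, among mast cell and basophil genes from 0 to 12.5%. The sums gave 1.36% for the 10 granule genes, 1.20% for mast cell and basophil, 1.93% for erythroid and 9.43% for macrophage genes. These shares describe 2 libraries, and their differences between lists were not tested. The 8 granule genes were chosen on this contrast and reached 1 FPKM through the negative library alone. The lists too were chosen with earlier results known. Nothing is therefore read from the low shares beside that of all measured genes.

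**Figure D3:**
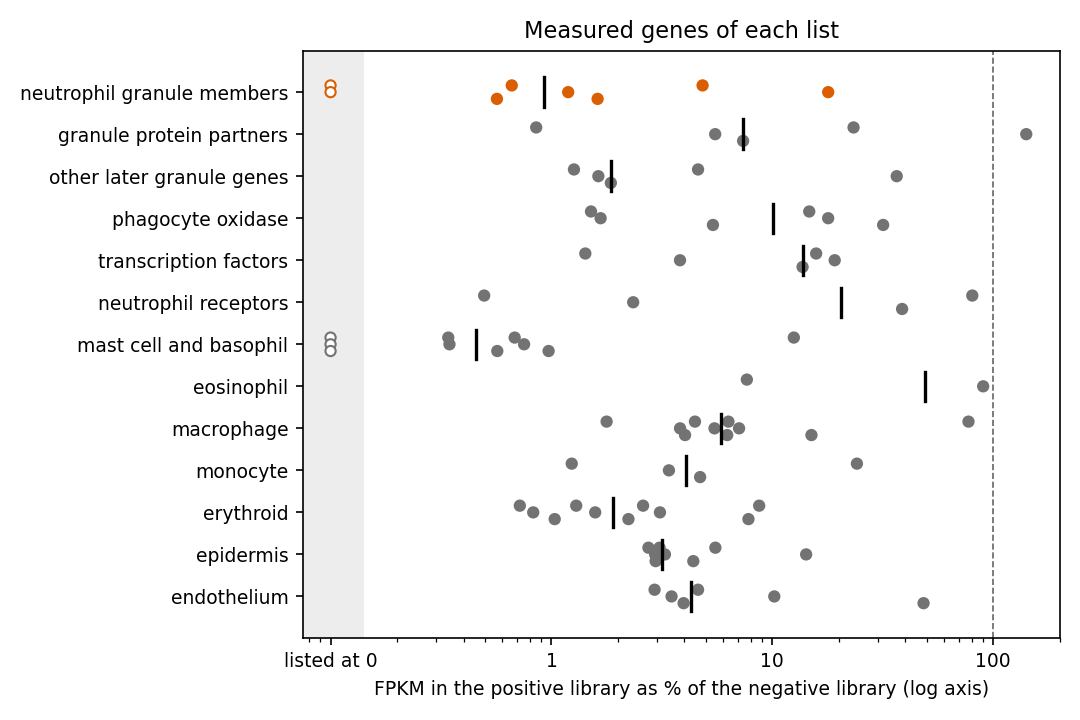
FPKM in the ScxGFP-positive library as a percent of that in the ScxGFP-negative library (log axis) for each measured gene of each list; black bars are list medians, open points in the grey band are genes listed at 0 in positive cells, and the dashed line marks equal values. The granule genes (orange) lie from 0 to 17.9% with a median of 0.926%, and the lists overlap.

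Genes beside the members on the chromosome were looked at to see whether the low values extend along it. Each gene had a nearest listed gene on either side, 16 in all outside the 10. Of these 8 were measured, 7 within 2-fold with log2 ratios between −0.51 and −0.053, and 1 lower, *Mcpt8* beside *Ctsg*. *Ngp* lies between *Ptpn23* (6.51 FPKM in positive and 6.80 in negative cells) and *Klhl18* (1.76 and 2.11), and *Camp* between *Nme6* (2.18 and 3.52) and *Cdc25a* (3.79 and 5.34). *Lcn2* lies between *1110008P14Rik* (7.21 and 9.52) and *Ptges2* (1.14 and 1.53), and *Prtn3* lies beside *BC005764* (11.9 and 14.6). No neighbour of *Mpo*, *Elane*, *S100a8*, *S100a9* or *Ltf* outside the 10 was measured, so for these genes there is no value to compare. For the other members the neighbours' values are given as a description, and no cause of the low values was tested. Beside *Mpo*, *Lpo*, the lactoperoxidase gene 2015 bases away, was listed at 0 and at 0.0478 FPKM, and *Bzrap1* at 0.0719 and 0.660. *S100a7a* beside *S100a8* stood at 0.0977 and 0, and *Pglyrp4* beside *S100a9* was at 0 in both. *Cfd*, the complement factor D gene 2636 bases from *Elane*, stood at 0.0358 and 0.0675. *Ltf* lies between *Rtp3* (0.233 and 0.235) and *Ccrl2* (0.0613 and 0.527), and *Gzme* beside *Ctsg* was at 0 in both. *Ngp* and *Camp* themselves lie 570 kilobases apart with 8 listed genes between them.

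The genes whose pair of levels was most like that of *S100a9*, the member with the highest negative value, were found by distance over log2(FPKM + 1) in the 2 libraries. The nearest were *Hdc*, the histidine decarboxylase gene (0.202 FPKM in positive and 20.8 in negative cells, distance 0.11), and *Sfpi1* (distance 0.13). Next came the mast cell tryptase gene *Tpsb2* (0.161 and 21.5, distance 0.17), the apolipoprotein gene *Apoc1* (0.383 and 18.8, distance 0.17) and the mast cell and basophil protease gene *Prss34* (0.0701 and 20.3, distance 0.21). With 2 libraries this likeness describes 2 levels only.

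The size of the ratios depended on the scale. A pseudocount or a filter cannot turn the sign of a ratio, so only sizes are compared. Over the settings tried, *Mpo* ranged from −6.41 to −2.24, *S100a8* from −6.52 to −2.22, *Prtn3* from −2.23 to −0.43 and *Camp* from −3.10 to −0.31. With a pseudocount of 5, only *Mpo*, *S100a8* and *S100a9* remained past 2-fold, and the 5 other measured genes lay within it.

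**Figure D4:**
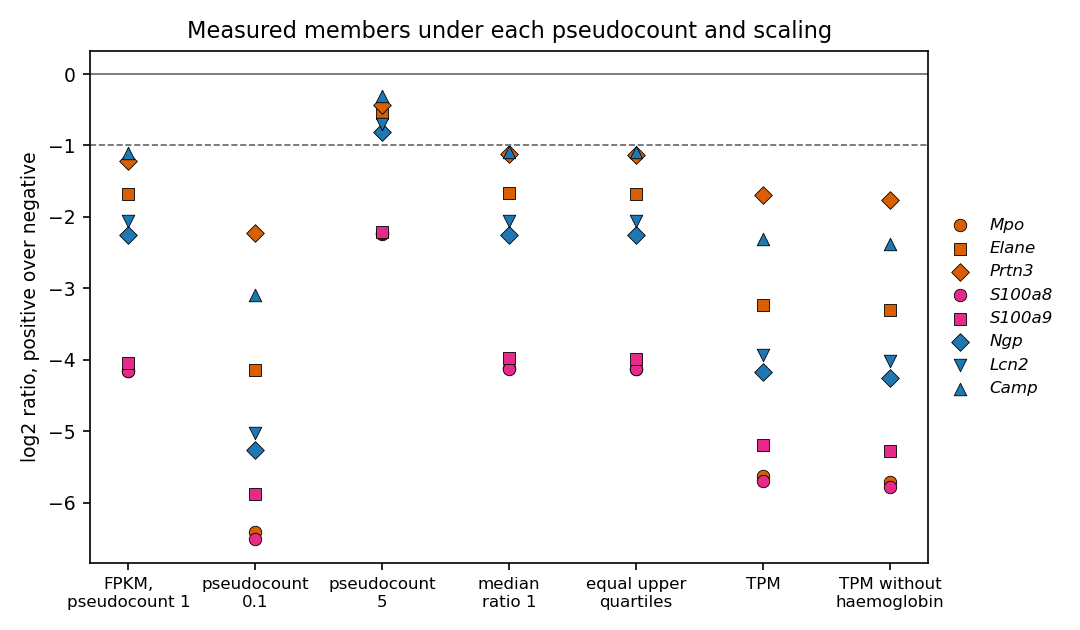
Log2 ratio of each of the 8 measured granule genes under the main setting, other pseudocounts and other scalings; the dashed line marks 2-fold lower in positive cells and the solid line equal values. The points lie highest with a pseudocount of 5 and lowest with 0.1; *Ngp* and *Lcn2* are listed at 0 in positive cells, so their ratios are set by the pseudocount and the scale.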

How the data were processed

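RNA of sorted forelimb cells was made into cDNA by the NuGEN Ovation RNA-Seq v2 chemistry, per the labels' protocols. Bowtie 0.12.7, TopHat 1.4.1 and build mm9 are named in the submitters' processing notes; no source used here gives the version of Cufflinks, whose output layout the files have. The authors' deposited FPKM is listed per RefSeq transcript, per the file headers, beside coverage, the estimated depth of aligned bases as the authors deposited it, and transcript length. Positions are printed counted from 1.

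FPKM was summed per gene symbol, and a symbol whose estimate had failed was left out; no member had a failed row, and each has 1 transcript row. Aligned bases are coverage times length, and coverage was a fixed multiple of FPKM in each library (2.28 positive, 2.39 negative). Sequence on listed transcripts came to 0.687 gigabases (positive) and 0.875 (negative). An exact 0 can be a failed estimate. The measure was log2((FPKM + 1) / (FPKM + 1)) with a pseudocount of 1, over genes that reached an FPKM of 1 in one library or both. With 1 library per group no test was run. The steps were checked on simulated data. Members and lists were chosen with earlier results of these data known, as were the rules. PU.1 was matched through its older symbol *Sfpi1* after the data were seen. Named were all 10 members, up to 4 genes by absolute ratio of each related list, the 2 highest of each list of other cell types, the 3 highest S100 genes, the nearest neighbours, and the 5 genes most like *S100a9*; *Cebpe*, *Gfi1*, *Mmp8*, *Mmp9* and *Epx* are further list genes under 1 FPKM. Alternatives were 2 other pseudocounts, 4 scalings, 2 filters and the highest transcript per symbol. Python 3.11.15 and pandas 2.3.3 were used.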

Additional observations from a re-analysis of the deposited data

How the results depend on the processing

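The median log2 ratio of the measured granule genes was −2.15. A pseudocount of 0.1 gave −5.15 and one of 5 gave −0.76; the value was −4.06 with FPKM rescaled to equal sums (TPM), −4.13 with TPM without haemoglobin genes and −4.16 with a minimum FPKM of 5, which left 3 members. Without a filter it was −1.87. TPM gives larger numbers than FPKM while the pseudocount stays at 1, so the TPM medians of the members fall as with a smaller pseudocount. Over all measured genes TPM moved the median log2 ratio the other way, from −0.27 to 0.10. The median of the granule genes is set by members listed at 0 in positive cells, and each member has 1 transcript row. The median-ratio and upper-quartile scalings and the highest transcript therefore could not move it. The count of members at least 2-fold lower, 8 of 8 measured, was 3 of 8 with a pseudocount of 5. Under a minimum FPKM of 5 it was 3 of the 3 members left, and it was 8 under the 7 others. Over all measured genes the count lower was 1207 of 12096 (9.98%). It was 394 of 12096 (3.26%) with a pseudocount of 5. Under a minimum FPKM of 5 it was 658 of the 6215 genes left (10.6%), so the count fell with the number of genes and the share did not. It ran from 936 to 1782 under the rest. The share of higher genes among all those past 2-fold was 28.8%, and 43.3% with the median ratio set to 1, 41.0% with equal upper quartiles, 49.3% with TPM and 45.5% with TPM without haemoglobin genes. The difference of later from primary medians, −0.37, ran from −0.88 to −0.13 over 8 alternatives and had no value with a minimum FPKM of 5; with the filter at 1 FPKM it is *Lcn2*, at 0 in positive cells, minus *Elane*, so no pseudocount could turn its sign, and no order of the classes is read from it. A change of less than 1.5-fold was taken as none, since there are no replicates. No paired analysis was possible because each group has 1 library. Positive values correspond to at most about 908 aligned bases per member.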
